A study of Homo sapiens with 8 samples.

Results

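The acute phase plasma protein genes are 10 genes, CRP, APCS, LBP, SAA4, SERPINA1, SERPINA3, A2M, HPX, ITIH3 and ITIH4, out of 20897 Ensembl genes listed for every library. They were chosen by symbol, and each symbol matched 1 row. HP, ORM1 and ORM2, which belong to the same group of plasma proteins, were not analysed here. Transcript levels came from polyA RNA of HepG2, an established human hepatocellular carcinoma line that serves as a model of hepatocytes and is 1 cell line in culture, without the macrophages that supply inflammatory cytokines in liver. The groups were genistein (3 libraries), BMP6 at 50 ng/ml (2 libraries) and DMSO vehicle (3 libraries), each treated for 18 h in medium with 1% serum, and all wells contained 1% DMSO. The genistein dose is 10 micromolar in the series design, whereas the treatment protocol gives the same figure in millimolar. Genistein is a soy isoflavone and tyrosine kinase inhibitor, and BMP6 is a bone morphogenetic protein that signals through SMAD proteins. The series as titled concerns hepcidin, which HAMP encodes and which limits iron uptake.

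In the acute phase response, hepatocytes change the mix of proteins they secrete into plasma when interleukin-6 and interleukin-1 reach the liver. Interleukin-6 acts through its receptor and STAT3, and interleukin-1 through NF-kappa B, with C/EBP factors taking part on many promoters. CRP, LBP and SERPINA3 are positive human acute phase genes, whereas albumin, transthyretin and apolipoprotein A-I are negative ones. A2M responds strongly in the rat and little in humans, and SAA4 encodes the constitutive form of serum amyloid A, unlike the inducible SAA1 and SAA2.

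Values are FPKM as deposited, by the usual definition fragments relative to transcript length and to the mapped total, though the scaling used is not stated. The values of a group are listed in the order of its replicate numbers. FPKM totals per library ranged from 1704599 in BMP6 1 to 3105197 in BMP6 2, so the BMP6 pair held both extremes. The sequencing depth is unknown. Zeros among tested genes were most frequent in genistein 2 (2167) and DMSO 1 (1679), while the remaining libraries had 356 to 962, and the BMP6 pair had the lowest correlation within a group over all tested genes (0.847, against 0.884 to 0.963). Hepatocyte markers were high in all libraries, with summed levels of 123982 to 205453 FPKM after genistein, 200813 to 213903 FPKM after BMP6 and 179144 to 215622 FPKM in DMSO over 10 genes. The sum does not show changes of single markers. TTR of this list fell after genistein (limma adjusted p = 0.0193) and the other 9 did not pass, beside 12.1% of all tested genes called. Of 7 macrophage and leukocyte markers, PTPRC, CD163, MARCO and CSF1R were listed at 0 in every library, and the summed level, mostly LYZ, was 1242 to 1955 FPKM after genistein, 1562 to 2401 FPKM after BMP6 and 3250 to 4859 FPKM in DMSO. After genistein LYZ fell and CD68 rose (limma adjusted p = 0.0448 and 0.0406). Of 7 fibroblast and stellate markers 5 were at 0 throughout, and the summed level was 139 to 179 FPKM after genistein, 149 to 261 FPKM after BMP6 and 253 to 265 FPKM in DMSO. Of 5 endothelial markers 3 were at 0 throughout, and their sum reached at most 1.71 FPKM. Of 5 biliary markers 1 was at 0 throughout, and their sum was 526 to 1118 FPKM after genistein, 314 to 2115 FPKM after BMP6 and 1471 to 2256 FPKM in DMSO. SOX9 of this list fell after genistein (212, 238 and 143 FPKM with genistein, 104 and 285 FPKM with BMP6 and 1303, 751 and 882 FPKM with DMSO alone, limma adjusted p = 0.0179). The part of these markers in the results was not tested. In such bulk RNA, fewer cells with a transcript and less of it per cell cannot be told apart. The labels do not say whether libraries came from separate cultures, so p-values measure the spread between these libraries, which may be technical.

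Of the 10 genes, 7 reached at least 1 FPKM in at least 2 libraries and were tested. CRP, the pentraxin that binds phosphocholine on bacteria and dying cells, APCS, the related serum amyloid P component, and LBP, which carries lipopolysaccharide to CD14, were listed at 0 FPKM in all 8 libraries and gave no test. Such zeros were frequent, as 7494 of all 20897 genes were listed at 0 in every library. SAA1 and SAA2, the inducible serum amyloid A genes next to SAA4 on chromosome 11, were also listed at 0 throughout. SAA1 and SAA2 are near-identical copies, so reads from them could have been divided or dropped, and no source used here says how such reads were counted. An exact 0 in these files can be a failed estimate, so absence of the transcripts is not shown. Estimates marked as failed numbered 31 to 55 per library, beside 8347 to 10364 genes at 0. Whether the genes named here were among those marked was not looked up.

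None of the 7 tested genes passed the threshold of 0.05 in any of the 3 comparisons. The test was limma on log2(FPKM + 1), adjusted by the Benjamini-Hochberg method across the 12661 genes tested. It called 12.1% of all tested genes for genistein against DMSO, 1.39% for genistein against BMP6 and 0.837% for BMP6 against DMSO. By direction, it called 6.11% higher and 5.96% lower after genistein, 0.34% higher and 0.498% lower after BMP6, and 0.64% higher and 0.75% lower with genistein against BMP6. At an unadjusted p under 0.05 there were 2 of the 7 genes in each comparison, where the share of all tested genes at that cut was 30% for genistein against DMSO, 14.7% for genistein against BMP6 and 18.9% for BMP6 against DMSO. SERPINA3 and HPX in genistein against DMSO, and SAA4 in both comparisons with BMP6, stood closest to the threshold, and some settings put them past it.

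**Figure D1:**
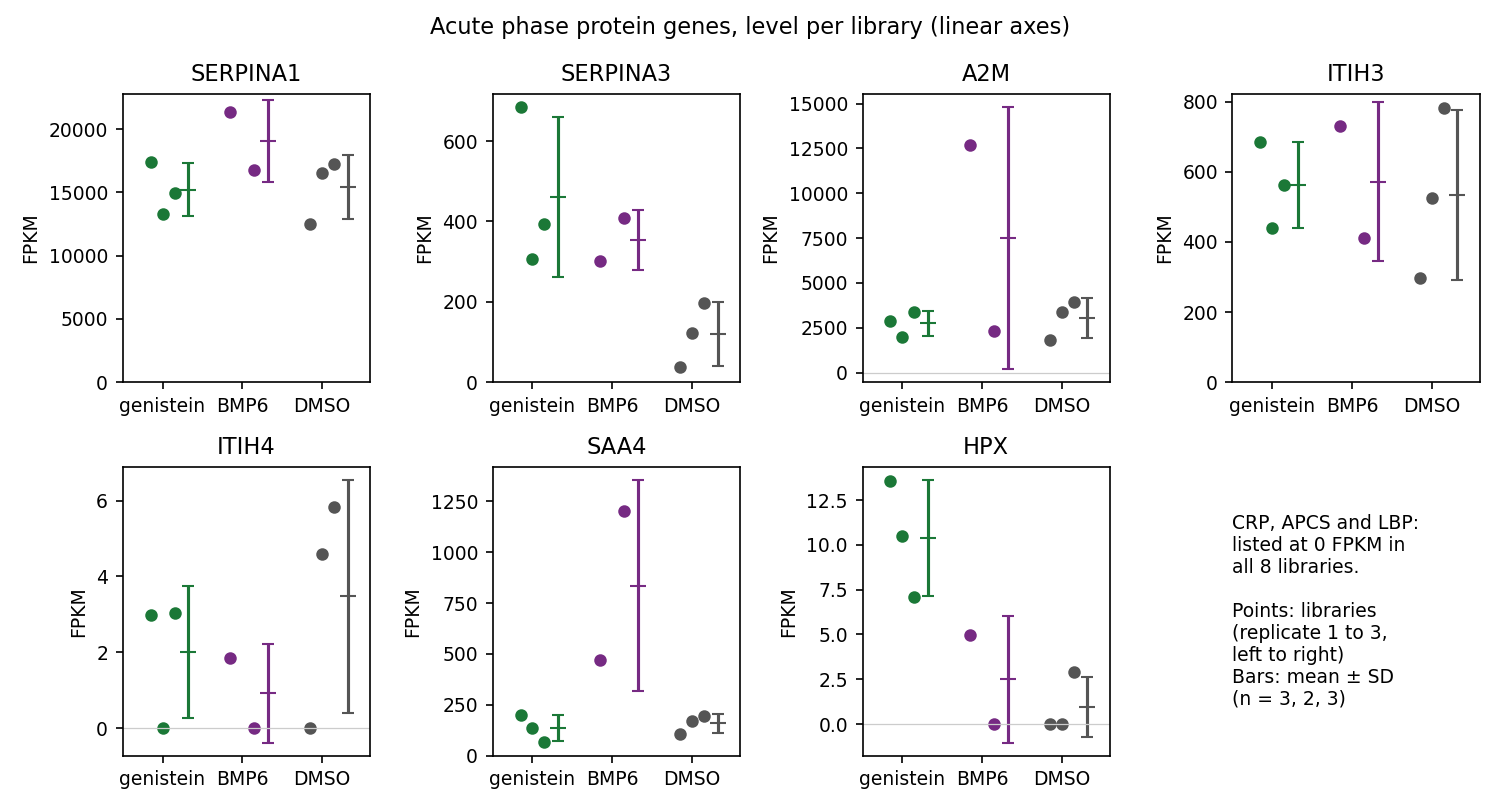
FPKM (linear axis) of the 7 tested genes in each library, with points for libraries and bars for mean ± SD (genistein n = 3, BMP6 n = 2, DMSO n = 3). The genistein points of SERPINA3 lie between 307 and 686 FPKM, above the DMSO points of 38.1 to 198 FPKM, and the BMP6 points of SAA4 lie at 468 and 1203 FPKM, above all others.

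SERPINA1 encodes alpha-1-antitrypsin, the main plasma inhibitor of neutrophil elastase (ENSG00000197249; hg18, chromosome 14, 93914451 to 93926782). It was the most abundant of the 10 in every library and ranked between 3 and 12 among all genes. It measured 17427, 13276 and 14953 FPKM with genistein, 21383 and 16784 FPKM with BMP6 and 12538, 16545 and 17239 FPKM with DMSO alone. The groups overlapped, and the highest library exceeded the lowest by a factor of 1.71. The log2 difference was -0.02 ± 0.62 (SE) for genistein against DMSO (limma adjusted p = 0.993) and 0.31 ± 0.69 for BMP6 against DMSO (limma adjusted p = 0.833). The 95% intervals allowed folds of 0.372 to 2.63 after genistein and 0.415 to 3.70 after BMP6, on the FPKM + 1 scale. These intervals are wide because limma draws on the spread of other abundant genes. The libraries of SERPINA1 itself had a residual SD of 0.23 (log2) about their group means.

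SERPINA3 encodes alpha-1-antichymotrypsin, an inhibitor of cathepsin G and chymotrypsin-like proteases (ENSG00000196136; hg18, chromosome 14, 94148387 to 94160150). It measured 686, 307 and 393 FPKM with genistein, 301 and 408 FPKM with BMP6 and 38.1, 122 and 198 FPKM with DMSO alone. Every genistein and BMP6 library lay above every DMSO library, while the genistein and BMP6 ranges overlapped, and DMSO 1 was the lowest library. The log2 difference was 2.15 ± 0.60 for genistein against DMSO (limma adjusted p = 0.0538), a fold of 4.43 with a 95% interval of 1.70 to 11.5. For BMP6 against DMSO it was 1.83 ± 0.67 (limma adjusted p = 0.204; fold 3.57, 95% interval 1.23 to 10.4), and both comparisons use the same DMSO libraries. For genistein against BMP6 it was 0.31 ± 0.67 (limma adjusted p = 0.885). Without DMSO 1 the genistein difference was 1.48 (adjusted p = 0.0898), and without DMSO 1 and genistein 2 it was 1.73 (adjusted p = 0.113). It passed without DMSO 3, BMP6 1 or BMP6 2 (adjusted p = 0.0493, 0.0462 and 0.0454), and over all 21 alternative settings the adjusted p ranged from 0.00418 to 0.156.

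Setting SERPINA3 against SERPINA1, a gene of the same family in the same library, removes the scaling of the library. SERPINA3 amounted to 3.94%, 2.31% and 2.63% of the SERPINA1 level in genistein 1, 2 and 3, to 1.41% and 2.43% in BMP6 1 and 2, and to 0.304%, 0.739% and 1.15% in DMSO 1, 2 and 3. The DMSO libraries were the 3 lowest on this measure too, with BMP6 1 nearest to them. This ratio was chosen after the values were seen and carries no test.

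A2M encodes alpha-2-macroglobulin, a broad protease trap (ENSG00000175899; hg18, chromosome 12, 9096693 to 9160020). It measured 2875, 2009 and 3367 FPKM with genistein, 12690 and 2346 FPKM with BMP6 and 1796, 3386 and 3921 FPKM with DMSO alone. BMP6 1 was far above all other libraries, and BMP6 2 lay inside the genistein and DMSO ranges. The log2 difference was 0.92 ± 0.76 for BMP6 against DMSO (limma adjusted p = 0.523), and it was -0.30 without BMP6 1 and 2.14 without BMP6 2 (adjusted p = 0.841 and 0.0611). For genistein against DMSO it was -0.10 ± 0.68 (limma adjusted p = 0.939; 95% interval of the fold 0.316 to 2.76). PZP, the close paralog of A2M, also had its highest value in BMP6 1, at 538 FPKM against 38.4 to 125 FPKM in the other libraries. Such a peak was not particular to this family. ALB (143115 FPKM), AHSG (18419 FPKM) and FN1 (8304 FPKM) were also highest in BMP6 1, while APOA1 (3963 FPKM) and FTL (9000 FPKM) were lowest there.

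ITIH3 and ITIH4 encode heavy chains of the inter-alpha-trypsin inhibitor family, proteins that bind hyaluronan or circulate free in plasma (ENSG00000162267 and ENSG00000055955; hg18, chromosome 3, 52803824 to 52818065 and 52822046 to 52839734). ITIH3 measured 685, 439 and 561 FPKM with genistein, 732 and 412 FPKM with BMP6 and 298, 524 and 781 FPKM with DMSO alone. The DMSO libraries spanned both other groups. The log2 difference was 0.16 ± 0.44 after genistein (limma adjusted p = 0.839) and 0.15 ± 0.49 after BMP6 (limma adjusted p = 0.894), with 95% intervals of the fold of 0.554 to 2.24 and 0.507 to 2.42. ITIH4 lay at the low end of detection, with 3.00, 0 and 3.02 FPKM with genistein, 1.85 and 0 FPKM with BMP6 and 0, 4.58 and 5.83 FPKM with DMSO alone. It was listed at 0 in 1 library of each group, among them DMSO 1 and genistein 2, and did not pass (limma adjusted p = 0.791 after genistein and 0.614 after BMP6).

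SAA4 encodes a serum amyloid A apolipoprotein carried on high density lipoprotein (ENSG00000148965; hg18, chromosome 11, 18209479 to 18214910). It measured 199, 138 and 69.6 FPKM with genistein, 468 and 1203 FPKM with BMP6 and 109, 170 and 196 FPKM with DMSO alone. Both BMP6 libraries lay above all 6 others, and the genistein and DMSO ranges overlapped. The log2 difference was 2.28 ± 0.57 for BMP6 against DMSO (limma adjusted p = 0.108), a fold of 4.85 with a 95% interval of 1.96 to 12.0. It was -2.58 ± 0.57 for genistein against BMP6 (limma adjusted p = 0.0783) and -0.31 ± 0.51 for genistein against DMSO (limma adjusted p = 0.72; fold 0.809, 95% interval 0.359 to 1.82). The BMP6 difference passed with median-of-ratios scaling, quantile normalization or rescaling to a common total (adjusted p = 0.0301, 0.0307 and 0.0202), and did not pass in any of the 8 fits that left out 1 library (0.113 to 0.295). It was 1.60 without BMP6 2 and 2.96 without BMP6 1, and 2.03 without DMSO 1 and genistein 2, and its adjusted p ranged from 0.0202 to 0.309 over all 21 settings.

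Relative to SERPINA1, SAA4 amounted to 1.14%, 1.04% and 0.465% in genistein 1, 2 and 3, to 2.19% and 7.17% in BMP6 1 and 2, and to 0.869%, 1.03% and 1.14% in DMSO 1, 2 and 3. The BMP6 libraries again stood above the other 6, with BMP6 2 more than 3 times BMP6 1. SAA4 ranked 547 and 394 among all genes in BMP6 1 and 2, against ranks from 1947 to 4228 in the other libraries.

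**Figure D2:**
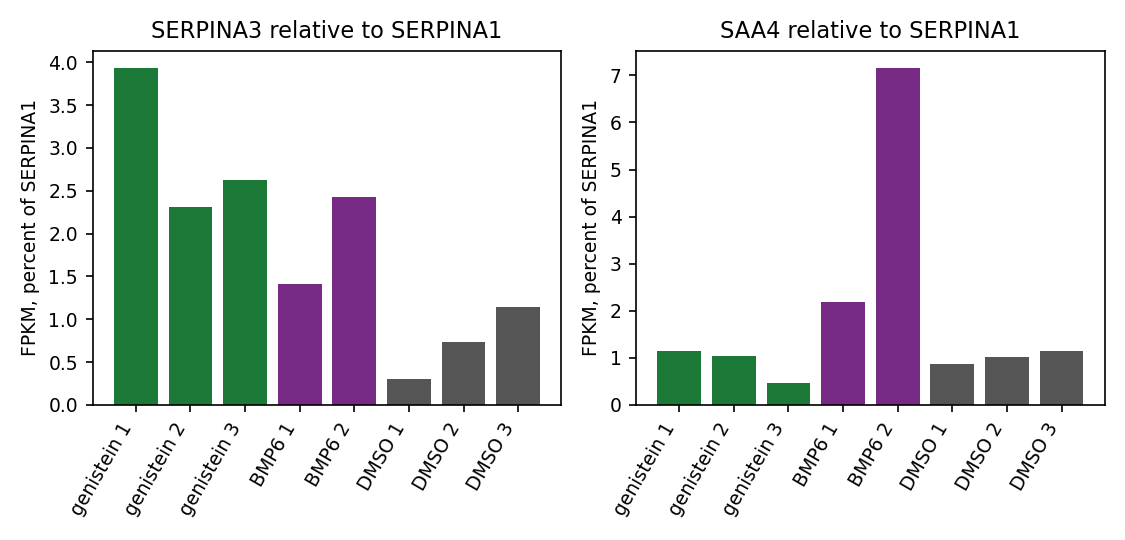
SERPINA3 and SAA4 as a percent of the SERPINA1 level in the same library, 1 bar per library coloured by group. SERPINA3 is lowest in the 3 DMSO libraries, at 0.304% to 1.15%, and SAA4 is highest in the 2 BMP6 libraries, at 2.19% and 7.17%.

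HPX encodes hemopexin, the plasma protein that binds free heme and returns it to the liver (ENSG00000110169; hg18, chromosome 11, 6408858 to 6418830). It measured 13.6, 10.5 and 7.10 FPKM with genistein, 4.98 and 0 FPKM with BMP6 and 0, 0 and 2.89 FPKM with DMSO alone. All genistein libraries lay above all BMP6 and DMSO libraries, and 3 of those 5 were listed at 0. The log2 difference was 2.81 ± 0.81 for genistein against DMSO (limma adjusted p = 0.058) and 2.18 ± 0.90 for genistein against BMP6 (limma adjusted p = 0.32). For BMP6 against DMSO it was 0.64 ± 0.90 (limma adjusted p = 0.724). The genistein difference depended on the pseudocount, being 5.03 with 0.1 and 1.38 with 5 (adjusted p = 0.123 and 0.0286), because 2 DMSO libraries were at 0. It passed without BMP6 1 or BMP6 2 (adjusted p = 0.0259 and 0.0243) and was 2.46 (adjusted p = 0.252) without DMSO 1 and genistein 2, and its adjusted p ranged from 0.00385 to 0.252 over 19 alternative settings.

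Groups that do not overlap were frequent among all tested genes. For genistein against DMSO, 2 of the 7 genes (SERPINA3 and HPX) lay wholly above DMSO and none wholly below, where 23.3% of all tested genes lay above and 20.6% below. For BMP6 against DMSO, 2 of 7 (SERPINA3 and SAA4) lay above and none below, where 16.1% lay above and 17.3% below. For genistein against BMP6, HPX lay above and SAA4 below, with 16.3% and 12.6% of all tested genes. The median log2 difference of the 7 genes was -0.02 after genistein, 0.64 after BMP6 and 0.01 between the treatments, beside 0.05, -0.03 and 0.12 over all tested genes.

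**Figure D3:**
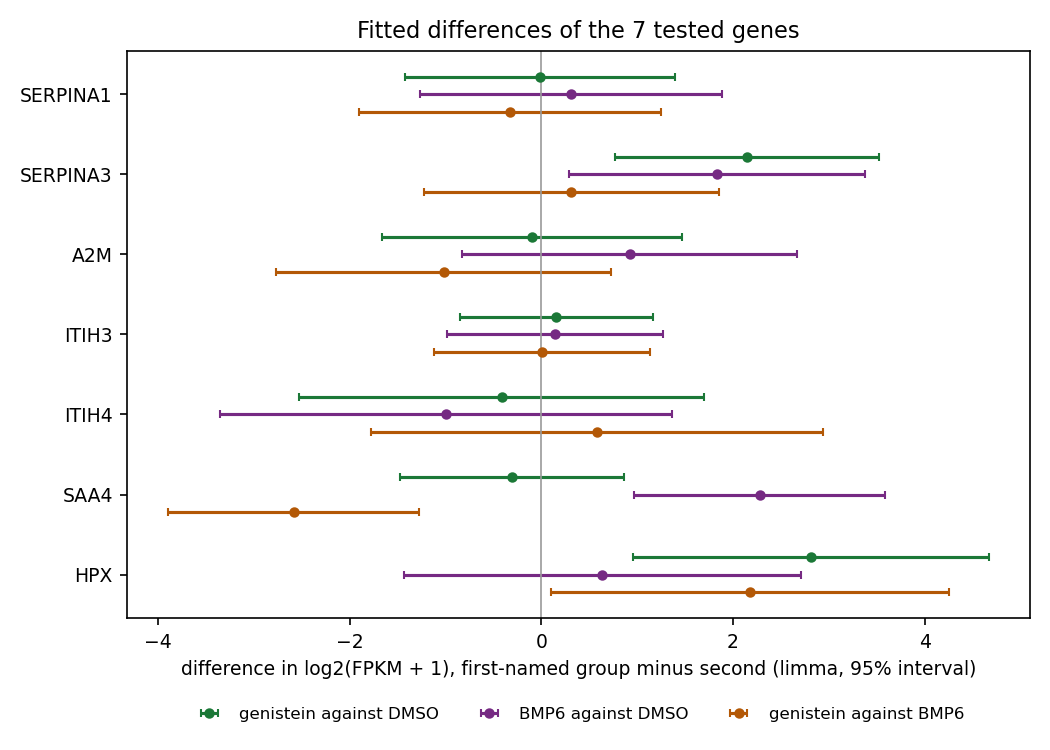
Fitted differences in log2(FPKM + 1) of the 7 tested genes, with 95% intervals from limma, for the 3 comparisons (first-named group minus second). The intervals leave out 0 for SERPINA3 and HPX after genistein, for SERPINA3 and SAA4 after BMP6, and for HPX and SAA4 between the treatments, before adjustment over all genes.

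The order of the levels differed between groups. In genistein the means ran from SERPINA1 (15219 ± 2089 FPKM, SD, n = 3) through A2M (2750 ± 688), ITIH3 (562 ± 122.6), SERPINA3 (462 ± 199), SAA4 (136 ± 64.7) and HPX (10.4 ± 3.23) to ITIH4 (2.01 ± 1.74), and the ranges of ITIH3 and SERPINA3 overlapped. In BMP6 the order was SERPINA1 (19083 ± 3252 FPKM, SD, n = 2), A2M (7518 ± 7314), SAA4 (835 ± 519), ITIH3 (572 ± 226), SERPINA3 (355 ± 75.1), HPX (2.49 ± 3.52) and ITIH4 (0.923 ± 1.30), and the ranges of SAA4 and ITIH3 and of HPX and ITIH4 overlapped. In DMSO it was SERPINA1 (15440 ± 2538 FPKM, SD, n = 3), A2M (3034 ± 1105), ITIH3 (534 ± 242), SAA4 (158 ± 44.8), SERPINA3 (119 ± 79.9), ITIH4 (3.47 ± 3.07) and HPX (0.964 ± 1.67), and the ranges of SAA4 and SERPINA3 and of ITIH4 and HPX overlapped. Summed over the 10 genes, the level made up 0.685% to 1.04% of all FPKM after genistein, 2.09% and 0.681% in BMP6 1 and 2, and 0.798% to 0.948% in DMSO.

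Promoter sequences are shown for the 3 genes with the largest differences and for ITIH4, the member whose window holds a STAT letter pattern. Each is the 250 bases before the gene start, from RefSeq (GRCh38.p14), written 5′ to 3′ on the gene's strand. Capitals mark matches to the patterns searched.
SERPINA3 (plus strand, chr14:94612141-94612390): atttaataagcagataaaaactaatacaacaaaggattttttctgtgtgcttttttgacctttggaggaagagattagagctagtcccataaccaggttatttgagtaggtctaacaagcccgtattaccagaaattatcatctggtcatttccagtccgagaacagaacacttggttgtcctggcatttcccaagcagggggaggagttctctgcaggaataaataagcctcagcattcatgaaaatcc
SAA4 (minus strand, chr11:18236803-18237052): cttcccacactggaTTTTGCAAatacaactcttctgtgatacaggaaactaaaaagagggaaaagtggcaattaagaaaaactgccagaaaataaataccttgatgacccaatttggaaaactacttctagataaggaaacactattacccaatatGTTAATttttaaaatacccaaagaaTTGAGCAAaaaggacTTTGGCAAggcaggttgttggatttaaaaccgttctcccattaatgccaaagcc
HPX (minus strand, chr11:6440988-6441237): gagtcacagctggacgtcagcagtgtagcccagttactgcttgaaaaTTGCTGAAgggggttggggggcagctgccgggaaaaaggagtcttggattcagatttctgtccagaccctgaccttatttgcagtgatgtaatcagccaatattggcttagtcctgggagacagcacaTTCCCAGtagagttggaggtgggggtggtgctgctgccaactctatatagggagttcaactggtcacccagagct
ITIH4 (minus strand, chr3:52830673-52830922): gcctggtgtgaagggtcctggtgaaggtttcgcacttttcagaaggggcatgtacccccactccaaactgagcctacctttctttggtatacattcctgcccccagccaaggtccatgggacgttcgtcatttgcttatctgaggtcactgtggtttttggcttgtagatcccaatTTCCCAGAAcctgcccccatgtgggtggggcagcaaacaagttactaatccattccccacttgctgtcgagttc

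Both strands were searched for TTCNNNGAA (STAT), CTGGGAA (interleukin-6 response element), TTGCNNAA (C/EBP), GTTAAT (HNF1), an NF-kappa B pattern and GGCGCC (BMP response), in the windows of 8 members (all but A2M and LBP). SAA4 held TTGCNNAA 3 times, its matches starting 236, 69 and 54 bases before the start, and GTTAAT 94 bases before it. HPX held CTGGGAA, read on the other strand as TTCCCAG, 75 bases before the start and TTGCNNAA 203 bases before it. ITIH4 held TTCNNNGAA 74 bases before the start, and the match to CTGGGAA lies inside it. The SERPINA3 window held none of the 6 patterns, APCS held CTGGGAA, the window at 1 of 2 SERPINA1 starts held GTTAAT, and CRP and ITIH3 held none. Over all 35116 promoter windows, 6.57% held TTCNNNGAA, 9.15% CTGGGAA, 9.05% TTGCNNAA, 6.23% GTTAAT, 1.73% the NF-kappa B pattern and 16.4% GGCGCC. The matches describe letters, and binding at them was not measured.

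The lower coordinates of SERPINA1 and SERPINA3 lie 233.9 kb apart in a cluster of protease inhibitor genes on chromosome 14, of which 8 were tested. SERPINA6, which encodes the corticosteroid carrier of plasma and whose lower coordinate lies at -74.1 kb from that of SERPINA1, measured 303, 289 and 219 FPKM with genistein, against 612, 1145 and 1051 FPKM with DMSO alone. It fell after genistein (log2 difference -1.75 ± 0.38, limma adjusted p = 0.0255). SERPINA4, kallistatin, SERPINA10, the protein Z-dependent inhibitor, SERPINA11 and SERPINA12 had differences of -1.17, -0.83, -0.98 and -2.17 after genistein, none past the threshold. SERPINA5, the protein C inhibitor, the tested gene next to SERPINA3 in the cluster, had 0.00 after genistein and 0.90 after BMP6 (limma adjusted p = 1 and 0.333). SERPINA3 had the highest difference of the 8 tested cluster genes in both comparisons, while no difference between neighbouring genes was tested.

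**Figure D4:**
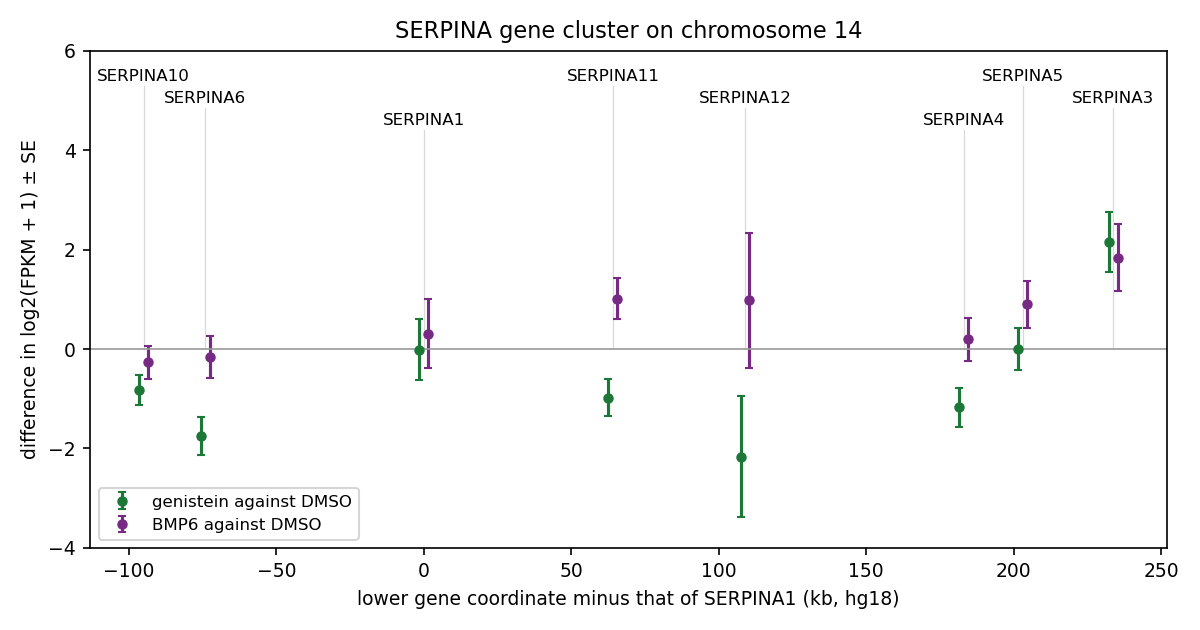
Differences in log2(FPKM + 1) ± SE from limma for the 8 tested SERPINA genes, placed by the distance of their lower coordinate from that of SERPINA1 in kb (hg18, whichever strand the gene is on), for genistein against DMSO and BMP6 against DMSO. SERPINA3, at 233.9 kb, has differences of 2.15 and 1.83, and SERPINA6, at -74.1 kb, has -1.75 and -0.16.

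In the inter-alpha-trypsin inhibitor genes on chromosome 3, ITIH1 has its lower coordinate at -17.2 kb from that of ITIH3. It measured 38.8, 22.3 and 19.4 FPKM with genistein, 21.8 and 20.8 FPKM with BMP6 and 34.9, 82.5 and 94.8 FPKM with DMSO alone. Its log2 difference was -1.31 ± 0.46 after genistein (limma adjusted p = 0.103) and -1.57 ± 0.52 after BMP6 (limma adjusted p = 0.175). ITIH2, on chromosome 10, was far more abundant, and ITIH3 amounted to 19.7% to 23.9% of it after genistein, 18.1% and 22.1% after BMP6 and 19.2% to 35.0% in DMSO. Of 16 tested neighbours and paralogs of the members, 0 rose and 2 fell after genistein (SERPINA6 and NPTXR, a pentraxin receptor gene), and none passed after BMP6. In either direction, genistein against DMSO called 12.1% of all tested genes. The 2 falls became 0 when DMSO 2, DMSO 3, or any library of genistein was left out, and 3 without DMSO 1. Over all tested genes, the 1527 calls became 229 to 685 in the fits that gave 0, and 1027 without DMSO 1. The counts after BMP6 and between the treatments, both 0, rose without BMP6 2, a fit that leaves 1 library in that group.

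Other positive acute phase genes moved both ways. Of 21 tested, 2 rose and 3 fell after genistein, and 1 rose and 2 fell after BMP6. Over all tested genes 6.11% rose and 5.96% fell after genistein, and 0.34% rose and 0.498% fell after BMP6. After genistein the rises were HAMP and SERPINC1 (log2 difference 1.45 ± 0.36), which encodes antithrombin. Antithrombin is often classed as a negative acute phase protein, so the place of SERPINC1 on this list is open. The falls were the fibrinogen chain gene FGA (-2.51 ± 0.41), SERPINF2 (-1.53 ± 0.41), which encodes antiplasmin, and MBL2, mannose-binding lectin. MBL2 was listed at 0 with genistein and with BMP6 and measured 4.14, 2.62 and 1.75 FPKM with DMSO alone. These values are low, and MBL2 entered the test only through the DMSO libraries, where it was high. Its call is therefore not independent support for a fall. HAMP measured 22.2, 34.4 and 22.8 FPKM with genistein and 2563 and 6425 FPKM with BMP6, and was listed at 0 in DMSO (limma adjusted p = 0.00169 and 4.6e-05). HAMP was the rise after BMP6, and the falls were FGA and FGG (log2 differences -4.08 ± 0.45 and -3.09 ± 0.52). HAMP was the one gene of the list past the threshold between the treatments, lower after genistein. The median of the list was -0.21 after genistein and -0.05 after BMP6. The ferritin genes FTL and FTH1, the most abundant of the list by the mean over all 8 libraries, did not pass in either comparison, with log2 differences after genistein of 0.99 ± 0.87 (limma adjusted p = 0.478) and 2.00 ± 0.97 (limma adjusted p = 0.205). The count of 5 after genistein was 3 without DMSO 1 or genistein 2, 2 without genistein 1 and 1 without DMSO 2 or genistein 3. In the same order, the 1527 calls over all tested genes became 1027, 577, 595, 229 and 280. The count of 3 after BMP6 was 1 without DMSO 2, DMSO 3 or genistein 3, and the count of 1 between the treatments was 2 without genistein 2. Both counts also changed without BMP6 2, a fit that leaves 1 library in that group.

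Of 17 tested negative acute phase genes, 0 rose and 3 fell after genistein: TTR, transthyretin, SERPINA6 and APOC3, an inhibitor of triglyceride clearance. The shares over all tested genes were 6.11% higher and 5.96% lower. TTR measured 1523, 1576 and 822 FPKM with genistein, against 8187, 8195 and 7162 FPKM with DMSO alone (log2 difference -2.64 ± 0.52, limma adjusted p = 0.0193), and APOC3 differed by -1.88 ± 0.45 (limma adjusted p = 0.0343). By the mean over all 8 libraries the most abundant of the list were APOA2, ALB, APOA1 and AHSG, which encodes fetuin-A, an order that differed between groups. Their log2 differences after genistein were -0.03 ± 1.03 (limma adjusted p = 0.991) for APOA2, 0.86 ± 0.93 (limma adjusted p = 0.561) for ALB, -2.85 ± 0.95 (limma adjusted p = 0.0895) for APOA1 and 0.87 ± 0.59 (limma adjusted p = 0.357) for AHSG, none past the threshold. None of the 17 passed after BMP6 or between the treatments, where 2 and 3 had an unadjusted p under 0.05 beside 18.9% and 14.7% of all tested genes. The median of the list was -0.42 after genistein and 0.15 after BMP6. The 3 falls were 0 without DMSO 2, DMSO 3, genistein 1 or genistein 3, and 1 without genistein 2. In the same order, the 1527 calls over all tested genes became 229, 685, 595, 280 and 577. The 0 between the treatments was 1 without genistein 2. The 0 after BMP6 rose without BMP6 2, a fit that leaves 1 library in that group.

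Among 36 tested regulators of the response, 2 rose and 4 fell after genistein, beside 6.11% and 5.96% of all tested genes. None passed after BMP6 or between the treatments, where 9 and 8 had an unadjusted limma p under 0.05 beside 18.9% and 14.7% of all tested genes. IL6R, the interleukin-6 receptor, measured 34.9, 35.2 and 45.3 FPKM with genistein, 27.9 and 10.6 FPKM with BMP6 and 6.30, 8.27 and 10.7 FPKM with DMSO alone (log2 difference after genistein 2.09 ± 0.43, limma adjusted p = 0.0224). SOCS3, the feedback inhibitor of STAT3 signalling, measured 3.83, 4.13 and 4.06 FPKM with genistein, 0.306 and 0 FPKM with BMP6, and was listed at 0 in DMSO (limma adjusted p = 0.015). SOCS3 reached 1 FPKM only with genistein, so it entered the test through the group where it was high. Its p is therefore not independent support for a rise. The falls after genistein were CREB3L3, a hepatic membrane-bound transcription factor (-4.15 ± 0.57), MYD88, the adaptor of the interleukin-1 receptor (-2.21 ± 0.37), the liver factor FOXA1 (-2.25 ± 0.43) and the NF-kappa B inhibitor NFKBIA (-2.07 ± 0.42). Of the most abundant regulators by the mean over all libraries, CEBPB, NR0B2 and XBP1 did not pass after genistein, with differences of -0.18 ± 0.83 (limma adjusted p = 0.91), 0.24 ± 0.40 (limma adjusted p = 0.726) and 0.31 ± 0.32 (limma adjusted p = 0.545). STAT3, named here after its values were seen, had 0.23 ± 0.29 (limma adjusted p = 0.612). The median of the list was -0.18 after genistein and -0.26 after BMP6. The count of 6 after genistein was 4 without DMSO 3 or genistein 1, 3 without genistein 2, and 1 without DMSO 2 or genistein 3. In the same order, the 1527 calls over all tested genes became 685, 595, 577, 229 and 280, so the loss was not particular to the regulators. The 0 after BMP6 was 1 without genistein 2, and the 0 between the treatments was 1 without DMSO 1 or genistein 2. These counts also rose without BMP6 2, a fit that leaves 1 library in that group.

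For each member above 1 FPKM in all libraries, the 3 tested genes most like it were taken by Pearson correlation of log2(FPKM + 1) over the 8 libraries, as a description that includes differences between libraries and groups. SAA4 was most like ID2, an inhibitor of differentiation (r = 0.965), SMAD7, an inhibitory SMAD (0.962), and NDRG2 (0.951). ID2 measured 384, 258 and 262 FPKM with genistein, 1064 and 1810 FPKM with BMP6 and 275, 332 and 385 FPKM with DMSO alone, with BMP6 2 the highest library as for SAA4. SERPINA3 was most like CCT2, a chaperonin subunit (0.992), PUS7, a pseudouridine synthase (0.991), and SAR1A, a GTPase of secretory vesicles (0.987). A2M was most like DDX6 (0.978), ATP6V1A (0.974) and SNX29 (0.961), all highest in BMP6 1. SERPINA1 was most like PARP14 (0.984), SYT7 (0.957) and IL1R1, the interleukin-1 receptor (0.953), and ITIH3 like CANT1 (0.949), NDST2 (0.94) and ZNF227 (0.928).

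**Figure D5:**
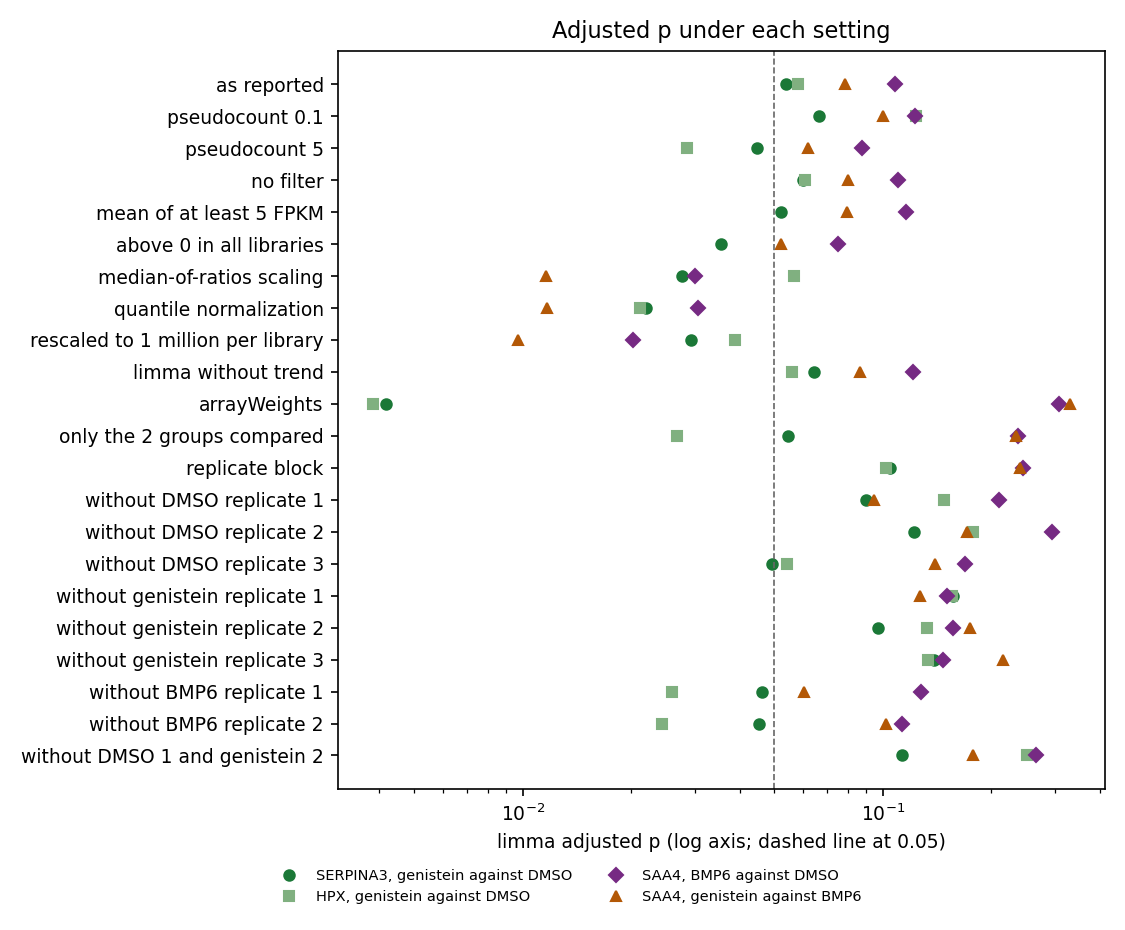
Adjusted p from limma (log axis, dashed line at 0.05) for SERPINA3 and HPX in genistein against DMSO and for SAA4 in genistein against BMP6 and BMP6 against DMSO, as reported and under each alternative setting. SERPINA3 runs from 0.00418 to 0.156 and SAA4 in BMP6 against DMSO from 0.0202 to 0.309, on both sides of the line.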

How the data were processed

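HepG2 polyA RNA-seq values were used as the authors deposited them, as FPKM per gene and library. The submitters' processing notes list hg18 as the build and Cufflinks 1.0.3, Cuffdiff, Bowtie and TopHat 1.1.0 as tools, without settings, so the scaling and the handling of shared reads are not given in the sources used here. The files hold no counts, and the sequencing depth is unknown. The deposited intervals were not used. Their upper half-width equalled 2 times the square root of the FPKM, to within 0.05, for part of the values above 0. That part was 60.2% (genistein 2) to 69.2% (DMSO 1) per library. Genes reaching 1 FPKM in 2 or more libraries (12661 of 20897) were tested with limma 3.58.1 (R 4.3.3; trend, all 8 libraries, 5 residual and 3.22 prior degrees of freedom) on log2(FPKM + 1). P-values were adjusted by Benjamini-Hochberg over all tested genes, with a threshold of 0.05. The log2 scale with a pseudocount understates differences of low genes. Starts in the files count from 0 and are given plus 1. Of the gene IDs, 19069 matched a symbol in the gene name table. Members and gene lists were chosen with earlier results of these data known. From the lists, genes past the threshold with the smallest p and the most abundant genes by mean FPKM are named, and neighbours and paralogs of members were named after their values were seen. Alternatives changed the pseudocount, filter, scaling, variance model, replicate block and libraries used. For 1 listed gene, results are not reported here.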

Additional observations from a re-analysis of the deposited data

How the results depend on the processing

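Over 21 alternative settings, 381 of 429 values for single members kept their direction and side of the threshold, 22 moved past it, and 26, none of them past it, changed sign. For genistein against DMSO, the count of members past the threshold was 0 as reported. It was 2 with a pseudocount of 5, quantile normalization, rescaling to a common total or arrayWeights. It was 1 with median-of-ratios scaling, genes above 0 in all libraries or only the 2 groups compared. Leaving out 1 DMSO or genistein library gave 0 or 1. Over all 12661 tested genes, 1527 passed as reported. In the order of the settings named, 1790, 2395, 2271, 5383 and 2239 passed, then 1581 of 9703 with that filter, and 2616. The gain was thus not particular to the members. For BMP6 against DMSO and genistein against BMP6 the count of members was 1, SAA4, under the 3 rescalings. The arrayWeights fit stopped before its convergence tolerance. Correlations of residuals ran from -0.247 to 0.286 for libraries of the same replicate number. Between other numbers they ran from -0.594 (genistein 3 with BMP6 2) to 0.594 (genistein 3 with BMP6 1). No pairing by number was seen. The 2 BMP6 libraries have mirror-image residuals by construction, so these values cannot exclude pairing. With the replicate block no member passed: the count was 0, the limma adjusted p was 0.104 for SERPINA3 and 0.102 for HPX after genistein, and ITIH3 between treatments changed sign (-0.16). With the block, the counts after genistein were 1 for other positive genes (5 as reported), 0 for negative genes (3), 1 for regulators (6) and 0 for neighbours (2), and the count after BMP6 was 1 for other positive genes (3). ITIH3 also changed sign with median-of-ratios scaling (-0.19) and rescaling (-0.0034) between treatments, and without DMSO 1 and genistein 2 (-0.046 after genistein, -0.22 after BMP6), as did ITIH4 after genistein with quantile normalization (0.019).

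Leaving out 1 library, log2 differences for genistein against DMSO ran from -0.64 to 0.11 for SAA4, -0.16 to 0.078 for SERPINA1, -0.21 to 0.48 for ITIH3, -1.29 to 0.25 for ITIH4 and -0.44 to 0.12 for A2M. For BMP6 against DMSO they ran from -0.65 to 1.93 for HPX, -0.27 to 0.56 for ITIH3 and -0.30 to 2.14 for A2M, and for genistein against BMP6 from -0.014 to 0.56 for SERPINA3, -0.40 to 0.42 for ITIH3, -0.17 to 1.34 for ITIH4 and -2.24 to 0.20 for A2M.

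HPX and ITIH4 gave no value under the 2 stricter filters. Counts over all tested genes ranged from 229 to 5383 about 1527 (genistein against DMSO; 414 with the replicate block), from 4 to 1999 about 106 (BMP6 against DMSO; 4 with the block) and from 7 to 629 about 176 (genistein against BMP6; 7 with the block). Rescaling to a common total turned 773 higher and 754 lower into 850 and 1421 after genistein, and 43 and 63 into 133 and 524 after BMP6. Median-of-ratios scaling moved the median of all genes after genistein to -0.054, against 0.048 as reported. Depth is unknown, so the precision of low values such as HPX and ITIH4 cannot be given.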
